A study of Mus musculus with 3 samples.

Results

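The genes described here are 8 transcription factors of extraembryonic and definitive endoderm (Gata4, Gata6, Sox17, Sox7, Foxa1, Foxa2, Hnf4a and Hhex) together with Pdgfra, a receptor of the same lineage. They were chosen by name, as every probe set whose only gene symbol in the platform annotation is a member, which gave 19 probe sets of 9 genes out of 34945 named probe sets of 18193 genes. The data are deposited log2 signals of total RNA from embryoid bodies, which are stem cell aggregates that differentiate in suspension. The bodies were grown from mouse embryonic stem cells of strain 129S7/SvEv Brd-Hprt b-m2 and collected on day 7. All 3 groups carried a human BRCA1 gene. The WT group had wild-type BRCA1, the MI group had the substitution M1652I, and the RQ group had R1699Q by the series design, while the label of that array reads R1669Q. Whether mouse Brca1 was present, and whether each genotype was 1 clone, the sources used here do not say. Each genotype was measured on 1 array, so no difference has a replicate check, no test was possible, and the precision is limited by the number of arrays. Higher and lower describe these arrays.

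Endoderm arises in the early embryo in separate waves. Primitive endoderm forms beside the pluripotent epiblast and gives visceral and parietal endoderm of the yolk sac, and definitive endoderm forms later at gastrulation and gives the gut. Gata6 and Gata4 are zinc finger factors that can drive stem cells to primitive endoderm, Sox17 and Sox7 are related HMG-box factors that act with them, and Hnf4a, Foxa2, Foxa1 and Hhex act in visceral endoderm, gut or liver. Pdgfra is the alpha receptor for platelet-derived growth factors and marks primitive endoderm as well as many mesenchymal cells. In bulk RNA, fewer cells of a type and less RNA per cell cannot be told apart.

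Before the values, the promoter sequences that RefSeq holds for these genes are shown where they carry a motif of the members' own families, since the members are known to act on each other. RefSeq windows of 300 bases (250 before to 50 after a start, build GRCm38.p6) matched 5 of the 9 genes with 8 windows. Both strands were searched for motifs of GATA factors (AGATAA or TGATAA), SOX factors (ACAAAG or ACAATG), FOXA factors (TGTTTAC or TGTTTGC) and HNF4A (CAAAGTCCA or CAAAGGTCA). The Hnf4a stretch lies at chr2:163506607-163506810 on the plus strand, before the annotated start of the gene. The Foxa1 stretch lies at chr12:57546235-57546264 and the Foxa2 stretch at chr2:148045630-148045659, both on the minus strand. Capitals mark the matches.

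Hnf4a: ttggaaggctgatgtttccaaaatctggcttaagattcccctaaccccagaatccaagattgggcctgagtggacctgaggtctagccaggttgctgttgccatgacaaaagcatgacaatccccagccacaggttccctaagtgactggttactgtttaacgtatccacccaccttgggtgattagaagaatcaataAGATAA
Foxa1: ttatactgCTTTGTAAACAAAGtgagggcc
Foxa2: ctgttagccttgAGATAAtattaaCTTTGT

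Hnf4a carried 1 GATA match, AGATAA on the same strand, and Foxa2 carried a GATA match beside a SOX match on the opposite strand. In Foxa1 a FOXA match on the opposite strand overlapped 2 SOX matches, 1 on each strand. The same windows held 2 further SOX matches in Foxa1 and 1 in Foxa2, nearer to or after the start. No window of Hhex or Pdgfra held any of these motifs. A GATA motif was present in 2 of the 8 member windows and in 18.6% of all 32851 windows, a SOX motif in 2 of 8 and 28.6%, a FOXA motif in 1 of 8 and 8.48%, and an HNF4A motif in 0 of 8 and 0.950%. These matches describe the sequence alone.

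The endoderm regulators gave modest signals on all arrays. On the WT array they ran from log2 5.41 to 7.14 with a median of 6.44, on the MI array from 5.47 to 7.41 with a median of 6.24, and on the RQ array from 5.42 to 6.94 with a median of 6.17. The medians of all probe sets on those arrays were 6.29, 6.35 and 6.28. Thus 13 of the 19 probe sets lay above the array median in WT, 8 in MI and 7 in RQ. Differences were read as past 2-fold only where the higher of the 2 arrays reached log2 6.31, the median of all values, because no detection calls were used here. Of the 19 probe sets, 7 reached that level on every array, 6 on some arrays and 6 on none.

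**Figure D1:**
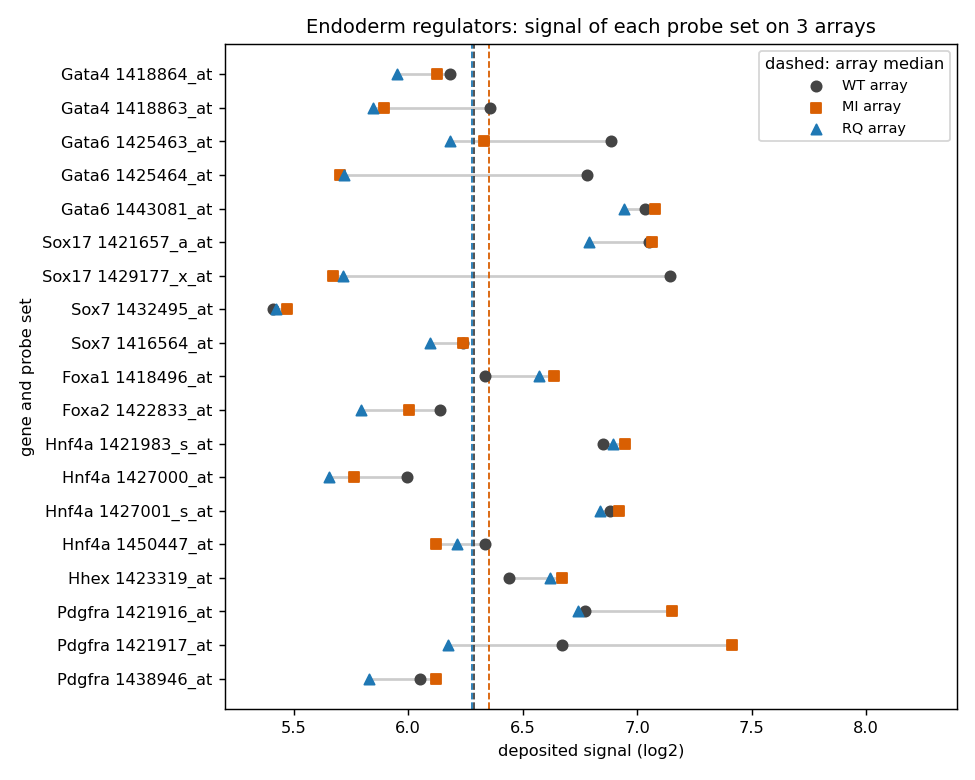
Deposited log2 signal (x axis) of each of the 19 probe sets (y axis, gene and probe set) on the WT (circle), MI (square) and RQ (triangle) arrays, with the median of each array dashed. WT lies far to the right of both mutants for Gata6 1425464_at and Sox17 1429177_x_at, and MI lies farthest right for Pdgfra 1421917_at.

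In RQ against WT, 2 of the 13 probe sets that could be read were at least 2-fold lower and 0 were 2-fold higher. Over all named probe sets at this level, 1.74% were 2-fold lower and 1.85% higher. In MI against WT the members gave 2 of 13 lower and 0 higher, where the background was 2.61% lower and 0.498% higher. The same 2 probe sets, Gata6 1425464_at and Sox17 1429177_x_at, made up both counts, and both comparisons share the WT array. In RQ against MI 1 of 9 was lower and 0 higher, with a background of 0.55% lower and 2.36% higher, and that member was Pdgfra 1421917_at. The counts therefore rest on 3 probe sets of 3 genes, each of which has another probe set that did not pass 2-fold. The Gata6 and Sox17 probe sets reached the level filter on the WT array alone, so a lower reading in the mutants was part of how they came to be counted. Likewise, in RQ against MI the Pdgfra probe set reached the filter in MI but not in RQ, so it could be counted only as lower.

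Across all 19 probe sets, 15 lay below 0 in RQ against WT, with a median log2 difference of -0.22, while 51.2% of all named probe sets lay below 0 with a median of -0.0037. In MI against WT 9 lay below 0 and 10 above, with a median of 0.01 that turned to -0.05 when arrays were centred on their medians and to -0.06 after a lowess correction for level, and all named probe sets had a median of 0.05. In RQ against MI 16 lay below 0 with a median of -0.11, and 61.2% of all named probe sets lay below 0 with a median of -0.05. Probe sets of 1 gene are not independent of each other.

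**Figure D2:**
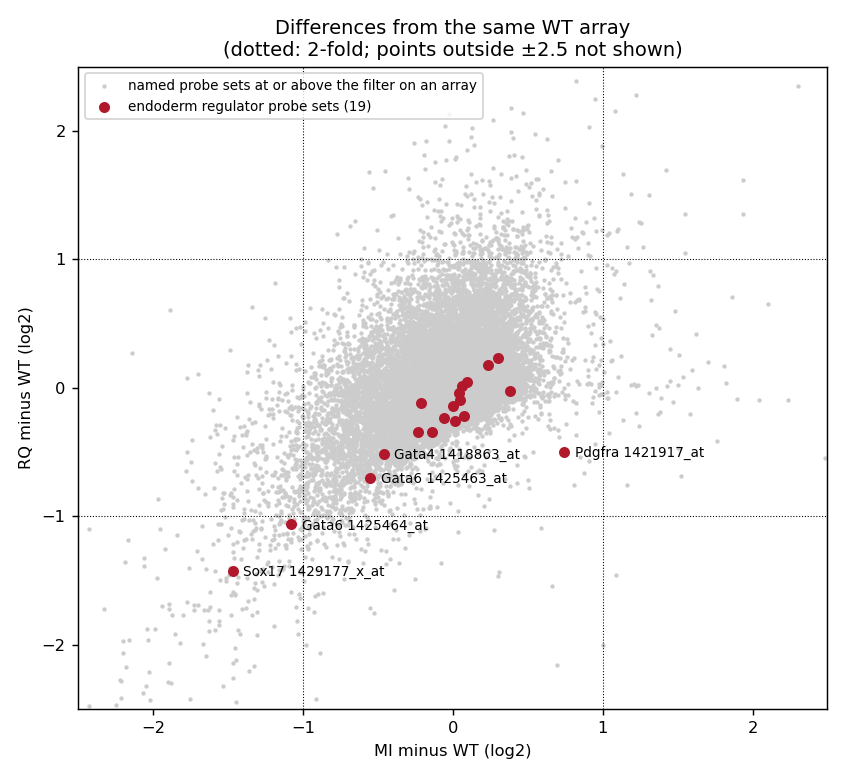
Log2 difference of MI (x axis) and of RQ (y axis) from the same WT array, for the 19 endoderm regulator probe sets (dark red) and for named probe sets that reached the level filter on an array (grey), with 2-fold dotted. Most members lie near the origin, Gata6 1425464_at and Sox17 1429177_x_at lie past 2-fold below WT on both axes, and Pdgfra 1421917_at lies to the right of and below the origin.

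Gata6, which stands at the head of the primitive endoderm programme, was read by 3 probe sets. Probe set 1425464_at read log2 6.78 (WT), 5.70 (MI) and 5.72 (RQ). Both mutants were thus below the level filter and WT above it, and the differences were -1.06 in RQ (2.09-fold lower) and -1.08 in MI (2.12-fold lower). Signals this low can be compressed, so these folds can understate the change.

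Gata6 1425463_at, designed from the same source sequence, read 6.88 (WT), 6.33 (MI) and 6.18 (RQ). It was again highest in WT, with differences of -0.70 in RQ and -0.55 in MI, short of 2-fold. The third, 1443081_at, designed from another sequence, read 7.04 (WT), 7.08 (MI) and 6.94 (RQ) and differed from WT by -0.09 in RQ and 0.04 in MI. The probe sets of Gata6 therefore gave unlike readings, and the mean over all 3 differed from WT by -0.62 in RQ and -0.53 in MI.

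To place single values on arrays without replicates, each difference was ranked among named probe sets whose mean level on the same 2 arrays lay within 0.25 log2 units. Gata6 1425464_at lay at percentile 0.10 of 9185 such probe sets in RQ against WT and 0.05 of 9558 in MI against WT. Gata6 1425463_at lay at percentiles 0.89 and 2.42, and 1443081_at at 27.6 and 47.8. This rank describes the arrays and says nothing of how another culture would read.

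Gata4, the partner of Gata6 that follows it in primitive endoderm, was read by 2 probe sets designed from 1 RefSeq transcript. Probe set 1418863_at read 6.36 (WT), 5.89 (MI) and 5.84 (RQ), with differences of -0.51 in RQ and -0.46 in MI. It was at the filter in WT and below it in both mutants, at percentiles 0.83 and 1.25 among probe sets of like level. The second, 1418864_at, lay below the filter on all arrays at 6.18 (WT), 6.12 (MI) and 5.95 (RQ). Its differences of -0.23 and -0.06 were in the same direction and were not read against 2-fold.

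Sox17, an HMG-box factor of both kinds of endoderm, had the largest difference from WT of any member, but by only 1 of its 2 probe sets. Probe set 1429177_x_at read 7.14 (WT), 5.67 (MI) and 5.72 (RQ), with differences of -1.43 in RQ (2.69-fold lower) and -1.47 in MI (2.77-fold lower). They lay at percentiles 0.08 of 8294 and 0.02 of 8840 probe sets of like level. The suffix _x_at marks a probe set in which some probes can match other transcripts, so this reading may not be of Sox17 alone.

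The other Sox17 probe set, 1421657_a_at, designed from a RefSeq transcript of the gene, read 7.05 (WT), 7.06 (MI) and 6.79 (RQ). It differed from WT by -0.26 in RQ and 0.01 in MI, at percentiles 10.4 and 42.7 among probe sets of like level. It thus did not repeat the lower reading of its companion in MI. Sox7, the relative of Sox17 that marks primitive endoderm and its parietal derivative, gave no signal above the filter. Its 1416564_at read 6.24 (WT), 6.24 (MI) and 6.09 (RQ), and its 1432495_at read 5.41, 5.47 and 5.42.

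The forkhead factors Foxa2 and Foxa1, which open chromatin at endodermal genes, had 1 probe set each and differed in direction. Foxa2 read 6.14 (WT), 6.00 (MI) and 5.79 (RQ), below the filter on all arrays, with WT highest. Foxa1 read 6.34 (WT), 6.64 (MI) and 6.57 (RQ), with WT lowest and differences of 0.23 in RQ and 0.30 in MI. Among probe sets of like level Foxa2 lay at percentiles 1.56 in RQ and 9.24 in MI against WT, and Foxa1 at 88.6 and 92.1. Neither gene differed by 1.5-fold from WT in either mutant.

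Hnf4a, the nuclear receptor that controls secreted products of visceral endoderm and liver, was read by 4 probe sets. The pair with suffix _s_at, shared between transcripts, had the higher signals of the 4 and were nearly level. Probe set 1421983_s_at read 6.85 (WT), 6.95 (MI) and 6.90 (RQ), and 1427001_s_at read 6.88, 6.92 and 6.84. The others were highest in WT, with 1427000_at at 5.99 (WT), 5.76 (MI) and 5.65 (RQ) and 1450447_at at 6.33, 6.12 and 6.21. Over the 4 probe sets the differences ran from -0.34 to 0.04 in RQ and from -0.23 to 0.10 in MI. The lowest, those of 1427000_at, lay at percentiles 1.14 and 3.10 among probe sets of like level. Hhex, a homeobox factor of anterior visceral endoderm and foregut, read 6.44 (WT), 6.67 (MI) and 6.62 (RQ), with differences of 0.18 in RQ and 0.23 in MI.

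Each of the 3 Pdgfra probe sets was highest on the MI array and lowest on the RQ array as deposited. For 1438946_at the lead of MI over WT was only 0.07, and it was 0.006 after centring and -0.0009 after lowess correction. The order MI, WT, RQ is not particular to Pdgfra, since Gata6 1443081_at, Sox17 1421657_a_at and Hnf4a 1427001_s_at had it too, over ranges of 0.14, 0.28 and 0.08. By 1 probe set per gene, 9 of 12 heart markers and 9 of 10 blood markers were highest on the MI array, but 0 of 15 pluripotency factors. The same held for 11 of 12 mesenchyme and fibroblast markers and 16 of 28 other endoderm transcription factors. The share of all genes highest on MI was not computed. Signals on MI were often the higher, since 39.0% of all named probe sets lay below 0 in MI against WT and 61.2% in RQ against MI. Probe set 1421917_at read 6.67 (WT), 7.41 (MI) and 6.17 (RQ), the last below the level filter. The difference of RQ from MI was -1.24 (2.36-fold lower), while MI differed from WT by 0.74 and RQ by -0.50, both short of 2-fold. Probe set 1421916_at, from the same source sequence, read 6.77 (WT), 7.15 (MI) and 6.74 (RQ), and 1438946_at, below the filter on all arrays, read 6.05, 6.12 and 5.83. For RQ against MI these gave -0.41 and -0.29, in the same direction as 1421917_at but short of 2-fold. Among probe sets of like level 1421917_at lay at percentile 0.18 in RQ against MI and 99.0 in MI against WT. The same ranks were 3.04 and 94.4 for 1421916_at, and 3.33 and 49.9 for 1438946_at.

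By 1 probe set per gene, 11 of 12 mesenchyme and fibroblast markers also had their highest signal on the MI array, many by small amounts. Of 12 mesenchyme and fibroblast markers, 9 could be read in MI against WT, 6 of them at or above the filter in WT, and 4 were at least 2-fold higher and 0 lower, where 0.516% of all genes were 2-fold higher and 2.44% lower. They were S100a4 (difference 3.31), Dcn (2.96), Vim (2.83) and Col1a2 (1.64), although a second probe set of Dcn differed by 0.09 and the lowest of Col1a2 by -0.07. S100a4 read 6.02 (WT), 9.33 (MI) and 5.93 (RQ), so it reached the filter in MI alone. It could thus be counted only as higher in MI against WT and only as lower in RQ against MI. Others of the 9 were close to WT in MI, such as Postn (0.07) and Col3a1 (0.09), and Fn1, at 10.70 (WT), 10.30 (MI) and 10.50 (RQ), was highest in WT. The same 4 genes were 2-fold lower in RQ than in MI, where 0.508% of all genes were lower and 1.98% higher. The mean log2 level over the 12 markers was 6.72 (WT), 7.68 (MI) and 6.64 (RQ), and Lum (6.12), Thy1 (6.25) and Twist1 (5.80) were below the filter in MI. The part of these markers in the Pdgfra reading was not tested.

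Other genes of PDGF and FGF signalling to primitive endoderm were mostly near WT when read by 1 probe set per gene. Of 18 on the array 15 could be read in RQ against WT, and 1 was 2-fold higher and 0 lower, against 1.68% higher and 1.49% lower over all genes. That gene was Kit, a receptor related to Pdgfra, at 7.76 (WT), 8.56 (MI) and 8.93 (RQ) (1.17 in RQ and 0.79 in MI), whose other probe set differed by 0.41 and 0.20. In MI against WT 0 of 16 were past 2-fold, beside 0.516% higher and 2.44% lower over all genes. The ligand gene Pdgfa read 7.11 (WT), 7.28 (MI) and 7.05 (RQ), a difference of -0.06 in RQ. Fgf4, the signal from epiblast to primitive endoderm, had 4 probe sets that gave unlike readings. The one with the highest mean, 1450282_at, read 7.35 (WT), 7.36 (MI) and 7.54 (RQ), but 1420085_at read 6.81, 6.61 and 8.62 and 1420086_x_at read 6.68, 6.64 and 8.45. The latter were thus 2-fold higher in RQ than on both other arrays, by 1.81 and 1.77 against WT, while 1449729_at was below the filter on all arrays. Dusp6, a feedback inhibitor of ERK, was above WT by 0.61 in RQ and by 0.29 in MI.

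Of 28 other endoderm transcription factors on the array, 17 could be read in RQ against WT, and 2 were at least 2-fold higher and 0 lower, beside 1.68% and 1.49% of all genes. They were Tbx3 (1.61), which acts in both pluripotency and primitive endoderm, and the nuclear receptor Nr5a2 (1.11). Their MI differences were 0.82 and 0.53, and over the probe sets of each gene the RQ differences ran from 0.12 to 2.03 for Tbx3 and from 0.17 to 1.11 for Nr5a2. In MI against WT 1 of 18 was lower and 0 higher, beside 2.44% and 0.516% of all genes. It was Otx2, a factor of epiblast and anterior visceral endoderm, at 7.35 (WT), 5.98 (MI) and 7.52 (RQ). Otx2 was below the level filter in MI, so in MI against WT it could be counted only as lower. Klf6 was at -0.82 in RQ and -0.78 in MI relative to WT, and Sall4, which acts in stem cells and primitive endoderm, was at 0.69 in RQ and -0.36 in MI. Over the 5 probe sets of Klf6 the differences ran from -0.82 to -0.02 in RQ and from -0.78 to -0.11 in MI. The median over the 28 factors was 0.02 in RQ and 0.14 in MI, beside medians of -0.0030 and 0.06 over all genes.

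Genes that extraembryonic endoderm is known to express had lower medians relative to WT than the regulators. Of 34 such genes on the array, 20 of the 28 read in RQ against WT were 2-fold lower and 0 higher, and 19 of the 30 read in MI were lower and 0 higher. The background shares are the 1.49% and 2.44% given above, and the list was written with earlier results of these arrays known, so it is no independent evidence. Of the genes counted, 9 in RQ and 6 in MI reached the level filter in WT but not in the mutant, so that they could be counted only as lower. The median log2 difference over all 34, with 1 probe set per gene, was -1.57 in RQ and -1.54 in MI. Read in the same way, the 9 regulators had medians of -0.09 in RQ and 0.04 in MI, and over their 19 probe sets the medians were -0.22 and 0.01. The sets are not of like level. In WT the 34 genes had a mean of log2 8.51, and the 19 regulator probe sets a median of 6.44, near the array median of 6.29. Signals near that median have less room to fall, and the part of level in these medians was not tested. Srgn, a proteoglycan core protein of secretory cells, read 11.43 (WT), 6.69 (MI) and 6.94 (RQ), and Cubn, the yolk sac endocytic receptor, read 10.67, 6.08 and 6.09. Lama1, a laminin chain of the first basement membranes, differed by -3.95 in RQ and -3.83 in MI, and Sparc, a matrix protein of parietal endoderm, by -3.85 and -3.21. Probe sets of these genes could also give unlike readings, since the highest of the 3 of Sparc differed by only -0.25 in RQ and -0.27 in MI. Genes of secreted carriers gave mixed readings. Apoe, a lipid carrier, was lower by more than 2-fold in both mutants at 10.58 (WT), 6.94 (MI) and 7.91 (RQ), and the retinol carrier Rbp4 differed by -0.45 in RQ and -0.17 in MI. The serum proteins Ttr and Afp are textbook targets of Hnf4a and Foxa factors. Afp read 7.10, 7.34 and 6.96, and the chosen probe set of Ttr read 6.55, 6.62 and 6.41, while another, 1454608_x_at, differed by -0.60 in RQ and -0.44 in MI. Apoa1 read 6.23, 6.25 and 6.27, below the filter.

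**Figure D3:**
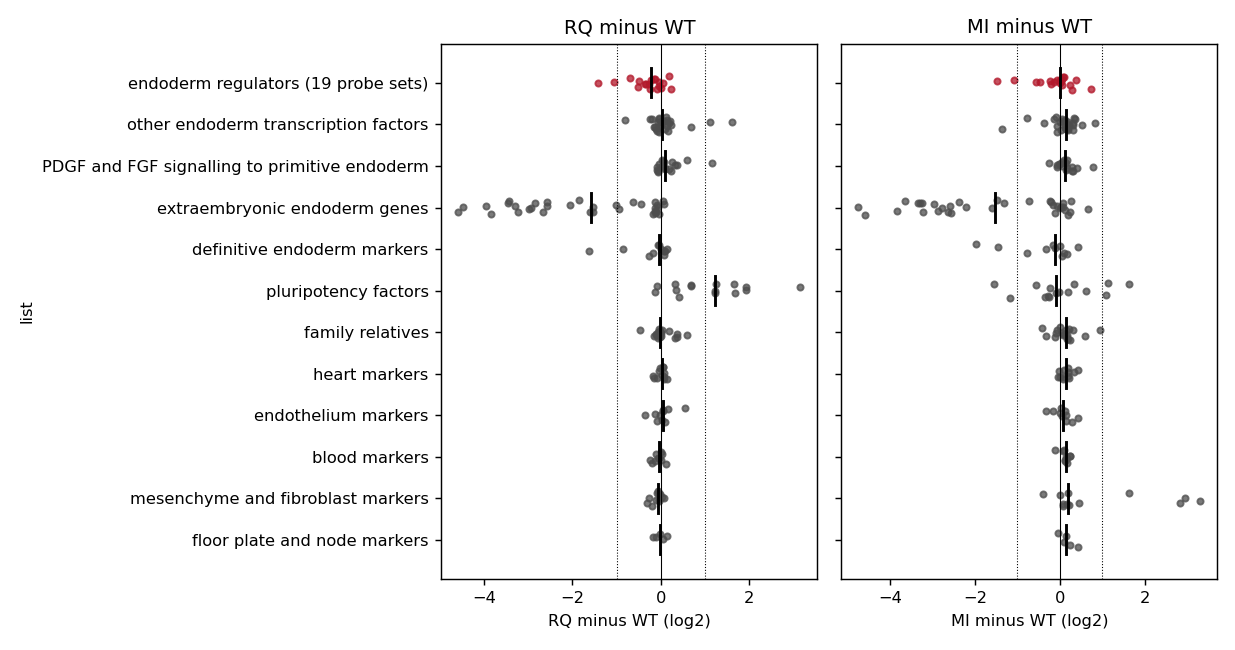
Log2 difference from WT (x axis) in RQ (left) and MI (right) for the 19 endoderm regulator probe sets (red) and for the genes of each other list (grey, 1 probe set per gene), with list medians as black bars and 2-fold dotted. The extraembryonic endoderm genes spread far below 0 in both mutants, while the regulators stay within about 1.5 of 0.

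Markers of definitive endoderm had medians of -0.03 in RQ and -0.10 in MI. Of 11 on the array, 1 of the 7 read in RQ was 2-fold lower and 0 higher, beside 1.49% and 1.68% of all genes. This was the claudin Cldn4 (-1.62). In MI 2 of 9 were lower and 0 higher, Cldn4 (-1.46) and the adhesion gene Epcam (-1.97), beside 2.44% and 0.516% of all genes. Epcam has a second probe set that differed by -0.20 in RQ and 0.02 in MI. Cxcr4 (WT 5.60, MI 5.66 and RQ 5.67), a receptor that marks definitive endoderm, was below the filter on all arrays, and Cer1 (6.26, 6.36 and 6.28) lay close to it.

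Pluripotency factors, which act against Gata6 in the early embryo, reached the level filter in 13 of 15 cases in WT, 14 in MI and 15 in RQ. In RQ 8 of 15 lay at least 2-fold above WT and 0 below, beside 1.68% and 1.49% of all genes, and 2 of the 8, Nr0b1 and Prdm14, did not reach the filter in WT. In MI 3 of 14 were higher and 2 lower, beside 0.516% and 2.44%. The largest differences in RQ were those of Dppa2 (3.17), a chromatin factor, Zfp42 (1.93), a zinc finger factor, the nuclear receptor Nr0b1 (1.92) and Klf2 (1.68), a factor of naive pluripotency, and their differences in MI were 1.64, 0.63, -0.03 and -0.56. Nanog, known to oppose Gata6 directly, read 10.27 (WT), 11.41 (MI) and 11.94 (RQ), so that it was lowest in WT. Gata6 1425464_at and 1425463_at were highest in WT, but Gata6 1443081_at was highest in MI. The rise of Nanog from WT to MI to RQ was shared by Klf4, Zfp42, Dppa2, Prdm14 and Esrrb. A link between Nanog and Gata6 was not tested. Pou5f1 read 11.39 (WT), 10.21 (MI) and 11.25 (RQ), and Sox2 read 10.54, 10.32 and 11.77, neither in that order.

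Several members are also known from other tissues, so markers of those tissues were read. Of 12 heart markers 7 could be read, of 10 endothelial markers 5 and of 5 floor plate and node markers 3 in each of the 3 comparisons, and 0 passed 2-fold in any of them. Over all genes the shares past 2-fold in 1 direction ran from 0.508% to 2.44%. A count of 0 in lists this small is near those shares and says little about these tissues. The floor plate ligand Shh read 9.51 (WT), 9.95 (MI) and 9.65 (RQ). Heart and endothelial markers were of mixed level. The filter was reached by 7 of 12 heart markers on each array, and by 4 (WT), 5 (MI) and 5 (RQ) of 10 endothelial markers. Tnnt2 of heart muscle (5.57, 5.78 and 5.64) and Cdh5 of endothelium (5.54, 5.65 and 5.46) were below it on all arrays. Nkx2-5 (7.06, 7.27 and 7.21), a heart marker, and Eng (7.05, 7.06 and 7.21), an endothelial marker, were above it on all arrays. The hybridization spikes, bacterial and phage transcripts added to the labelled sample, were lower on both mutant arrays, with a median over 18 probe sets of -0.64 in RQ (-1.38 to -0.42) and -0.80 in MI (-1.48 to -0.36) against WT. They moved the same way as Gata6 1425464_at and Sox17 1429177_x_at, and their part in those readings was not tested.

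Genes with the most similar pattern over the 3 arrays were sought for members that spanned at least 1 log2 unit. By the probe set with the highest mean, 0 of the 9 members qualified, with ranges of 0.10 to 0.41. The search was therefore repeated, after the values were seen, for the 3 probe sets that spanned that much, among 12965 other genes and by Euclidean distance of values centred on their own mean. For Gata6 1425464_at the nearest were Hkdc1 (distance 0.026), a hexokinase-like gene, the mRNA decay factor Patl1 (0.044) and the autophagy gene Map1lc3b (0.059). For Sox17 1429177_x_at they were the selenoprotein gene Selenok (0.024), the thrombin receptor F2r (0.027) and the surface sialomucin Podxl (0.042). For Pdgfra 1421917_at they were the receptor kinase Axl (0.090), the collagen processing factor Pcolce (0.105) and the cytokine Il33 (0.110). A pattern over 3 arrays leaves only 2 free values, so close neighbours are easily found in so many genes.

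**Figure D4:**
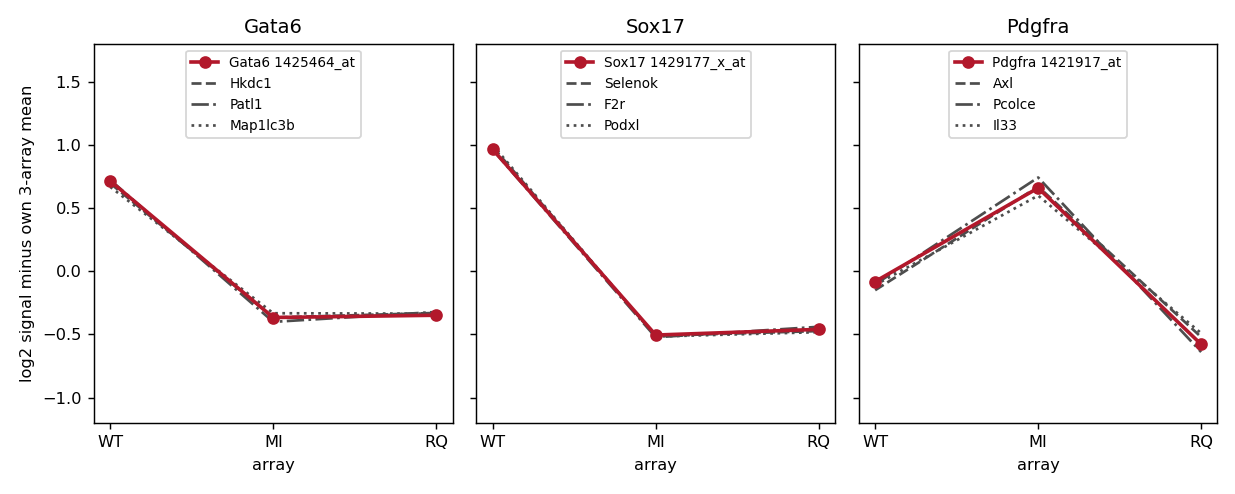
Log2 signal minus the gene's own mean over 3 arrays (y axis) on the WT, MI and RQ arrays (x axis) for Gata6 1425464_at, Sox17 1429177_x_at and Pdgfra 1421917_at (red) and the 3 nearest genes of each (grey lines). The Gata6 and Sox17 probe sets are high in WT and low in both mutants, and the Pdgfra probe set peaks in MI.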

How the data were processed

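Total RNA (6 ug per sample) of 3 samples was hybridized to Affymetrix mouse arrays, per the labels. The values are log2 signals of 45101 probe sets as deposited by the authors, and Partek and RMA (background correction, normalization and probe summary) are named, without versions, in the submitters' processing notes. A genome build is not named in the sources used here. Of the probe sets 34958 had 1 gene symbol, 932 several and 9211 none, and 34741 of the 34945 named ones without controls matched RefSeq (GRCm38.p6) by Entrez identifier, used for names. Mean signal was 6.60 on each array. Scanner files and detection calls were not used here, so no batch was examined.

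Differences of 2 arrays were computed in Python 3.11.15 with pandas 2.3.3 and statsmodels 0.14.6, with no test. All probe sets of the members are given, and for other genes the probe set with the highest mean. Of each of 11 lists, the count past 2-fold and up to 4 genes with the largest difference were to be named, and genes named beyond that, such as Pdgfa, Fgf4, Apoe, Rbp4, Ttr, Afp, Fn1, Postn, Col3a1, Nanog, Pou5f1, Sox2 and Shh, were chosen after their values were seen. The members and lists were chosen with earlier results of these data known. Counting was tested on simulated data. Alternatives were 3 other scalings, 2 other level filters, 2 other fold limits and 3 other choices of probe sets.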

Additional observations from a re-analysis of the deposited data

Results flagged for a closer look

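Pdgfra 1421917_at was the only member probe set past 2-fold between the mutants that lay on opposite sides of WT in them, with a log2 difference of RQ from MI of -1.24. MI differed from WT by 0.74 and RQ by -0.50. With 1 array per genotype the difference was not tested. The other Pdgfra probe sets lay at -0.41 and -0.29 for RQ against MI. On the RQ array 1421917_at was below the level filter, so in RQ against MI it could be counted only as lower.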

How the results depend on the processing

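The counts past 2-fold among member probe sets (2 in RQ against WT, 2 in MI against WT and 1 in RQ against MI) were the same after centring arrays, quantile normalization again, lowess correction and without a level filter. They depend on the choice of probe sets and on the limits. With 1 probe set per gene, and with the probe sets of a gene averaged, they were 0 in all 3 comparisons, and with a limit of 3-fold they were also 0 in all 3. With the filter at the 75th percentile (log2 6.92) they were 1 in RQ and 1 in MI against WT, where Sox17 1429177_x_at was left, and with probe sets of suffix _x_at, _s_at or _a_at left out they were 1 and 1, where Gata6 1425464_at was left. With a limit of 1.5-fold they were 3, 3 and 1, all lower except Pdgfra 1421917_at, which was higher in MI against WT. Over the 19 probe sets, centring turned the sign of 0 differences in RQ against WT, 4 in MI against WT and 5 in RQ against MI, none of them past 2-fold, and the scalings moved single members by up to 0.10 log2 units. No paired analysis was possible because each genotype has 1 array and no test was run. Signals near the filter limit what can be read, and differences against background can understate a ratio.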

Other observations

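Relatives of the members that are not endoderm regulators were read in the same way. Of 19 such genes on the array, such as other GATA, SOX and forkhead factors, 14 could be read in RQ against WT and 15 in MI against WT, and 0 passed 2-fold in either. Over all genes 1.49% were 2-fold lower and 1.68% higher in RQ, and 2.44% and 0.516% in MI, so 0 is near the background. The largest differences were those of Sox4, at 7.85 (WT), 8.80 (MI) and 8.44 (RQ), whose 8 probe sets ran from -0.14 to 0.95 in MI and from -0.23 to 0.59 in RQ. Gata2 (6.81, 7.03 and 6.75 in WT, MI and RQ) and Gata3 (6.31, 6.56 and 6.27), which share the zinc fingers of Gata4 and Gata6, were highest in MI by small amounts. Of 10 blood markers 7 could be read and 0 passed 2-fold against WT in RQ or MI, which is again near those shares.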
